A study of Homo sapiens with 4 samples.

Results

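SRC, FYN, YES1, LYN, ABL1, ABL2 and CSK are 7 genes of the 36601 features in the UMI count tables. They were chosen by name, as non-receptor tyrosine kinases of the SRC and ABL families that PP121 inhibits, together with CSK, the kinase that restrains the SRC family. The samples were enteric ganglioids, which are free-floating clusters of enteric neurons and their precursors differentiated from human pluripotent stem cells of the H9 line. All 4 samples carried the unmodified H9 genotype named in the labels: 2 were control ganglioids and 2 had received 2 µM PP121, an inhibitor of tyrosine kinases and of the PI3K family, from day 15 to day 20 of the differentiation. Each sample pooled ganglioids of 1 independent differentiation, so n was 2 in each group and every sample came from 1 cell line. In the deposited annotation replicate 1 of both groups was day 42 and replicate 2 of both groups was day 38, so day, replicate number and differentiation cannot be told apart. Samples are named below by their group and day.

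SRC family kinases sit at the inner face of the cell membrane, where they pass signals from receptors and adhesion contacts to other proteins. CSK phosphorylates a tyrosine in their tail, which folds the kinase into its inactive shape. ABL1 and ABL2 are related kinases that act on regulators of the actin cytoskeleton, and in neurons FYN also phosphorylates DAB1, the adaptor of the reelin pathway that guides migrating neurons. Inhibition of these kinases by PP121 acts on the proteins. The values here are RNA in nuclei collected after the drug had been withdrawn, and kinase activity was not measured.

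Promoter windows of 300 bases (RefSeq, GRCh38.p14), from 250 bases before a start to 50 after it, were at hand for 5 of the 7 genes. Those of YES1, ABL1 and ABL2 are shown because YES1 and ABL2 were higher in Progenitor 1 than in Progenitor 2 and neurons and ABL1 was not. Letters in capitals mark GGGCGG (the GC box), CCAAT (the CCAAT box), TATAAA (the TATA box) or CACGTG (an E-box) on either strand. The YES1 window is chr18:812193-812492 on the minus strand, the ABL1 window chr9:130835004-130835303 on the plus strand, and the ABL2 window chr1:179143027-179143326 on the minus strand. All 3 windows lie inside the RefSeq span of their gene, at a start downstream of the outermost one.
YES1: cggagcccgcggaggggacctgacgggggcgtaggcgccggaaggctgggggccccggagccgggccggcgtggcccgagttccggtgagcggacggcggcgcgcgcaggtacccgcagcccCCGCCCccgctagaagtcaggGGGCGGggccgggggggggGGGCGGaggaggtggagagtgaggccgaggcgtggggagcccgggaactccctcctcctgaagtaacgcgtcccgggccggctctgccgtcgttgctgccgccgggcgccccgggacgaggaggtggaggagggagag
ABL1: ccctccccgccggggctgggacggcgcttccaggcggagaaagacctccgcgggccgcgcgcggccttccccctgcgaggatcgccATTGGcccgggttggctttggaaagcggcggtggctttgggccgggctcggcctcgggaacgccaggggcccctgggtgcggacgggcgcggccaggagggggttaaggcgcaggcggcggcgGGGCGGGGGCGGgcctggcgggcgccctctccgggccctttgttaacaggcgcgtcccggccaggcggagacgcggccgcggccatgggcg
ABL2: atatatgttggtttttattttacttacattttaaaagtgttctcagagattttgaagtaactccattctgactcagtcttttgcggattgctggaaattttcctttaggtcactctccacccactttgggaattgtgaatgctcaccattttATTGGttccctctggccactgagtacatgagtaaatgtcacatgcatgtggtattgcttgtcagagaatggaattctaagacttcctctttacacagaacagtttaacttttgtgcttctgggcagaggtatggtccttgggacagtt
GGGCGG occurred 3 times in the YES1 window, 2 times in the ABL1 window and 0 times in the ABL2 window, against a share of 44.95% of all 35116 windows that held it. CCAAT occurred 1 time in the windows of ABL1 and ABL2 and 0 times in that of YES1, against 34.6% of all windows. Neither TATAAA, held by 11.5% of all windows, nor CACGTG, held by 7.26%, was found in these 3 windows. GC content was 78.7% for YES1, 78.3% for ABL1 and 39.0% for ABL2, so the windows of YES1 and ABL2, the pair that was higher in Progenitor 1, shared none of the 4 motifs. FYN had 4 windows with 0 to 8 matches to GGGCGG, and the CSK window held none of the motifs.

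The deposited annotation assigned 14812 of 25306 nuclei to 6 classes, with 2912 to 4587 nuclei per sample and a median of 6289 to 7071 UMIs per nucleus. Enteric neurons numbered 976 to 2301 per sample, Progenitor 1 501 to 1197 and Progenitor 2 683 to 1155. The class named Unknown held 60 to 211 nuclei, the mesenchymal class 33 to 422 and the epithelial class 9 to 37. Pairs of libraries shared 0 to 8 cell barcodes. The markers fit the neuron and mesenchymal names: the summed level of 11 enteric neuron markers was 7822 to 10785 CPM in neurons and at most 2101 CPM in the progenitor classes, and that of 13 mesenchymal markers was 4873 to 5514 CPM in the mesenchymal class and at most 304 CPM in Progenitor 1. The 7 progenitor markers summed to 649 to 934 CPM in Progenitor 1 and 1914 to 2434 CPM in Progenitor 2, against 418 to 468 CPM in neurons, and the Unknown class had as much as Progenitor 2 (1858 to 2361 CPM). In a joint clustering of all 4 samples, 8.56% and 14.3% of the neurons of the day 42 and day 38 controls fell into progenitor clusters, against 3.20% and 5.23% of the PP121 neurons. In every comparison below, the nuclei of 1 class and 1 sample were pooled into a single sum of UMIs, and CPM is 1000000 times the UMIs of a gene divided by all UMIs of that sum. A level is therefore compared between classes and samples for 1 gene, and not between genes, whose lengths and intron content differ.

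FYN was found in most nuclei of every class, and YES1 was lower in neurons than in the other classes. Gene spans below are those of RefSeq on GRCh38.p14. Among the kinases that CSK restrains, FYN (chr6:111660332-111873452) read 401 CPM in neurons of the day 42 control, 461 CPM in the day 38 control, 419 CPM in PP121 at day 42 and 522 CPM in PP121 at day 38. A FYN UMI was present in 83.0%, 88.2%, 83.5% and 88.7% of these neurons, in the same order. One was also present in 63.6% to 74.2% of Progenitor 1 nuclei and 72.9% to 76.5% of Progenitor 2 nuclei. FYN was 287 to 411 CPM in Progenitor 1 and 326 to 352 CPM in Progenitor 2, so neurons were above Progenitor 1 in 4 of 4 samples although the ranges overlapped. The Unknown class, at 227 to 257 CPM, did not overlap Progenitor 2 for FYN. Its median of 240 CPM was the lowest, beside 242 CPM in the epithelial class, which ran from 189 to 309 CPM.

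YES1 (chr18:721588-812753), a widely expressed member of the SRC family, was lowest in neurons, with 51.1 CPM in the day 42 control, 63.9 CPM in the day 38 control, and 56.0 and 61.6 CPM in PP121 at day 42 and day 38. In Progenitor 1 the same samples gave 197, 187, 157 and 130 CPM, and in Progenitor 2 117, 102, 109 and 113 CPM. The 3 classes did not overlap, and Progenitor 1 stood above Progenitor 2 and Progenitor 2 above neurons in each sample. The mesenchymal class, at 141 to 205 CPM, overlapped Progenitor 1. The Unknown class, at 80.7 to 110 CPM, overlapped Progenitor 2 and not neurons. In nuclei thinned to 2000 UMIs, a YES1 UMI was present in 23.3% to 32.2% of Progenitor 1 and 8.03% to 9.62% of neurons. Without thinning, 41.3% to 57.3% of Progenitor 1 nuclei and 24.1% to 31.2% of neurons held one. AP001020.3, an antisense gene, and AP001020.2, a gene inside an intron on the same strand, overlap YES1 and had 480 and 307 UMIs against 11182 for YES1, and reads of the overlap cannot be assigned to one of them if strand was not used.

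SRC (chr20:37344699-37406050), the founding member of the family, was 24.3 and 24.2 CPM in neurons of the day 42 and day 38 controls and 27.4 and 27.6 CPM in those of PP121. Progenitor 2 lay below at 16.4 to 23.3 CPM without overlap, and Progenitor 1 held 11.6 to 24.3 CPM, which overlapped Progenitor 2. The Unknown class, at 7.21 to 13.7 CPM, overlapped Progenitor 1. The mesenchymal class had the highest SRC median, at 20.2 to 30.8 CPM, and overlapped neurons. SRC was sparse: 2583 UMIs were counted over all annotated nuclei, against 44600 for FYN.

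LYN (chr8:55879835-56014169), a SRC family kinase best known from blood cells, had 662 UMIs in all. It was 2.55 to 4.11 CPM in neurons, 2.30 to 11.5 CPM in Progenitor 1 and 2.78 to 6.33 CPM in Progenitor 2, and these ranges overlapped. In Progenitor 1 of the day 38 control, the highest of those values, 1 nucleus held 20 UMIs of LYN. The Unknown class read higher, with 25.6 CPM in the day 42 control, 34.2 CPM in the day 38 control, and 27.4 and 48.4 CPM in PP121 at day 42 and day 38. All 4 values were above every value of the neuron and progenitor classes. The mesenchymal class came close at its top, with 6.73 to 25.2 CPM, where the highest value was that of the day 42 control with a LYN UMI in 17.5% of its 40 nuclei. A LYN UMI was present in 11.4% to 24.0% of Unknown nuclei (median depth 7767 to 9911 UMIs) and in 1.53% to 2.36% of neurons (median depth 7210 to 8102 UMIs). In nuclei thinned to 2000 UMIs, the share was 3.35% to 7.44% in the Unknown class, after leaving out 0 to 2 shallower nuclei per sample, and 0.346% to 0.524% in neurons, after leaving out 2 to 10. The exact binomial 95% interval for 8 of 176 Unknown nuclei of the day 42 control was 1.98% to 8.76%, and that for 12 of 2291 neurons of the same sample 0.271% to 0.913%, with counting error only. Of 5 blood and immune markers, 4 had a UMI in the Unknown class and AIF1 was at 0. Their summed level there was 12.8 to 63.0 CPM, with a median of 16.95 CPM and the highest value in PP121 at day 38. Both progenitor classes overlapped this range, and Progenitor 1 had a higher median, at 20.2 CPM. The mesenchymal class reached 140 CPM, and neurons lay below the Unknown class, at 12.2 CPM or less. The sum therefore did not set the Unknown class apart as LYN did. The part of blood and immune cells in the LYN level was not tested. The genes leading this class over the others by fold were AL157378.1, LMX1A and APOB.

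CSK (chr15:74782080-74803197), the restraining kinase, was 11.2 and 10.1 CPM in neurons of the day 42 and day 38 controls and 11.1 and 10.9 CPM in those of PP121. Progenitor 1 held 7.33 to 9.53 CPM and Progenitor 2 7.03 to 8.70 CPM, both below neurons without overlap, and the Unknown class 2.31 to 6.57 CPM, from 2 to 12 UMIs per sample. These levels rest on 1067 UMIs in all.

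ABL1 (chr9:130713043-130887675) and ABL2 (chr1:179099330-179229677), the paralogs of the ABL family, differed in where they were high. ABL1 was 138 and 140 CPM in neurons of the day 42 and day 38 controls and 160 and 172 CPM in those of PP121. It was 114 to 153 CPM in Progenitor 1 and 141 to 191 CPM in Progenitor 2, with overlap between all 3 classes. The mesenchymal class had the highest ABL1 median, at 161 to 207 CPM, and overlapped neurons and Progenitor 2. ABL2 was highest in Progenitor 1, with 195 CPM in the day 42 control, 255 CPM in the day 38 control, and 220 and 265 CPM in PP121 at day 42 and day 38. It did not overlap Progenitor 2, at 163 to 191 CPM, and Progenitor 2 overlapped neurons, at 141 to 172 CPM.

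**Figure D1:**
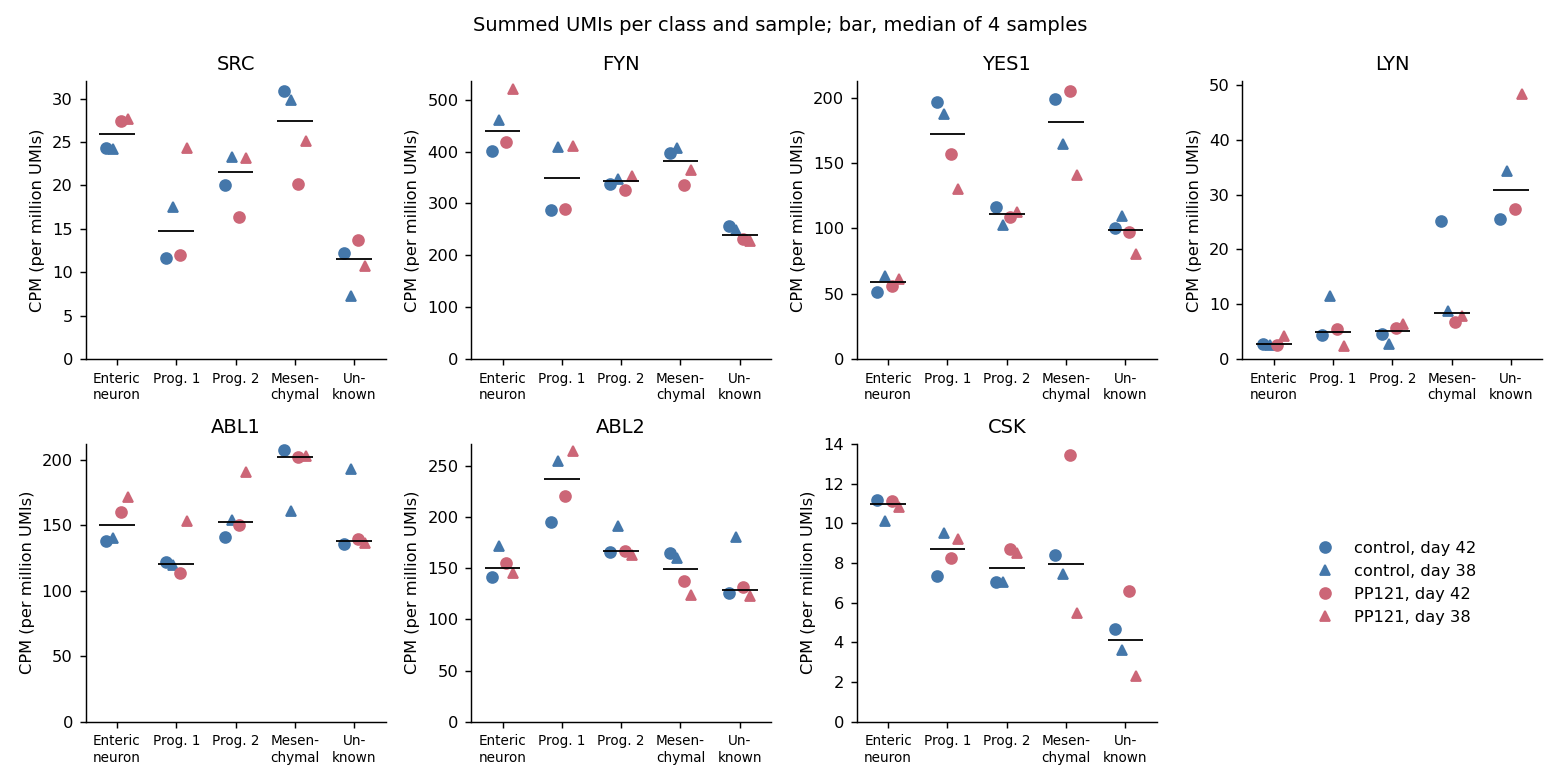
Level of each kinase gene in CPM (vertical axes, linear from 0) in 5 classes, with 1 point per sample, colour for the group, circles for day 42, triangles for day 38, and a bar at the median of 4 samples. YES1 and ABL2 are highest in Progenitor 1 among the neuron and progenitor classes, LYN reaches 25.6 to 48.4 CPM in the Unknown class, and CSK and SRC are higher in neurons than in Progenitor 2.

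To set the classes side by side within each sample, the log2 CPM of neurons minus that of both progenitor classes together was taken, with 0.5 added to each count. The classes had been clustered on these same counts, so the differences are a description with no test. YES1 was lower in neurons by -1.47 and -1.11 in the day 42 and day 38 controls and by -1.23 and -0.94 in PP121, a mean of -1.19 ± 0.22 (SD, n = 4). It was the only one of the 7 genes past 1.5-fold in all 4 samples, and 8.08% of 20757 genes tested were lower in neurons by that rule. None of the 7 was past 1.5-fold higher in all 4 samples, against 9.92% of genes tested. SRC (0.46 ± 0.34), FYN (0.39 ± 0.09) and CSK (0.42 ± 0.16) were higher in neurons in 4 of 4 samples, and ABL2 (-0.35 ± 0.06) and LYN (-0.86 ± 0.45) were lower in 4 of 4. ABL1 was near equal, with a mean of 0.06 ± 0.14 and 3 of 4 samples above 0. The median of the mean log2 difference was 0.06 over the 7 genes and -0.07 over all genes tested.

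**Figure D2:**
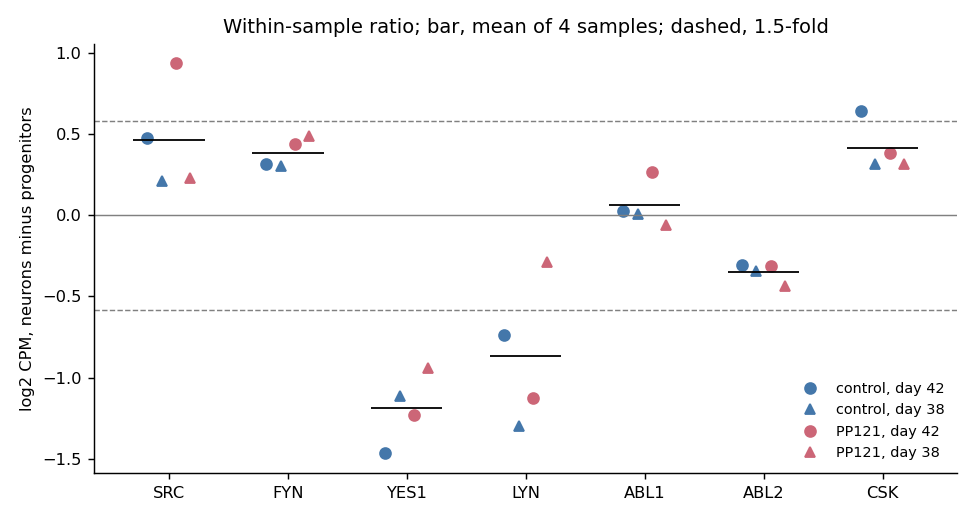
Log2 CPM of enteric neurons minus that of both progenitor classes (vertical axis) within each sample for the 7 genes, with 1 point per sample and a bar at the mean of 4 samples. Only the 4 points of YES1, from -1.47 to -0.94, lie wholly beyond the lower dashed line at 1.5-fold, and those of FYN and ABL2 spread least.

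Among 41 other genes of these pathways (other SRC family kinases, regulators, adhesion and actin substrates, ABL partners and the reelin pathway), 34 could be tested by the same rule, of which 5 were higher and 3 lower in neurons. The higher ones included SRCIN1, an inhibitor of SRC in neurons (log2 difference 1.26 ± 0.19, SD over 4 samples), AFAP1, an actin filament protein that binds SRC (1.80 ± 0.31), the ABL-binding adaptor SORBS2 (2.03 ± 0.31) and the secreted ligand RELN (2.59 ± 0.89). The lower ones were the focal adhesion kinase relative PTK2B (-0.86 ± 0.15), the adhesion scaffold NEDD9 (-0.99 ± 0.09) and the adaptor NCK1 (-0.76 ± 0.11). Of the 7 other SRC family kinases, 2 had enough UMIs to be tested and neither was past 1.5-fold in all samples.

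PP121 against control asked whether the drug, withdrawn at day 20, left a difference in the RNA of its own target families. In enteric neurons none of the 7 genes passed edgeR's quasi-likelihood test with Benjamini-Hochberg adjustment, and 0% of 21243 genes tested did. Among all genes 2549 had an unadjusted p under 0.05, among the 7 none did, and DESeq2 called none of the 7. ABL1 did not overlap between the groups: control neurons held 139 ± 1.56 CPM and PP121 neurons 166 ± 8.26 CPM (mean ± SD, n = 2 each). Its log2 difference was 0.29 (SE 0.13, adjusted p = 0.42 by edgeR), with 0.22 at day 42 and 0.29 at day 38. With the replicate number as a block, ABL1 was called higher (0.29, SE 0.09, edgeR adjusted p = 0.029), in a fit that called 7.97% of genes higher and 6.86% lower, and it was the only one of the 7 called. In joint clusters with the same block the difference was 0.23 with an edgeR adjusted p of 0.15.

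SRC also did not overlap, with 24.2 ± 0.11 CPM in control and 27.5 ± 0.14 CPM in PP121 neurons (n = 2 each), and neither fit called it. The SE of its edgeR log2 difference of 0.22 was 0.14. FYN, YES1, LYN, ABL2 and CSK overlapped between the groups in neurons. Groups of 2 samples can fail to overlap by chance, and the share of all genes that did so was not counted. A lack of overlap between groups or days is therefore a description, here and below. The median log2 difference was 0.17 over the 7 genes, 0.16 over the 34 pathway genes tested and -0.00 over all genes. The median over the 7 rested on single samples: it was -0.01 without PP121 at day 38 and 0.28 without the day 38 control.

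Of 34 pathway genes in neurons, the blocked fit called 7 higher and 0 lower with PP121, beside 7.97% of all genes higher and 6.86% lower. The fit without the block called none of them. In joint clusters with the same block 4 of the 34 were called higher, RELN, CBLB, SORBS2 and AFAP1. That fit called 488 of 21378 genes higher and 174 lower. The summed enteric neuron markers were also higher with PP121 on each day, at 9042 against 10785 CPM at day 42 and 7822 against 8644 CPM at day 38, and their part was not tested. RELN was 4.85 and 16.1 CPM in the controls and 15.6 and 25.7 CPM in PP121 at day 42 and day 38, so the groups overlapped while PP121 was higher on each day (log2 difference 1.19, SE 0.19, blocked edgeR adjusted p = 7.5e-05). CBLB, a ubiquitin ligase that removes active SRC and ABL kinases, was 627 and 700 CPM in the controls and 762 and 970 CPM in PP121 (0.41, SE 0.09, adjusted p = 0.0013). CBLB did not overlap between groups, and neither did SORBS2 (0.41, SE 0.08) and AFAP1 (0.42, SE 0.09). ENAH, an actin regulator that ABL phosphorylates, rose by 0.35 (SE 0.09), and EFS, a SRC-binding scaffold counted in 43 to 92 UMIs per sample, by 0.94 (SE 0.24).

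In Progenitor 1 none of the 7 genes was called with or without the block, against 0% of 16083 genes without it and 2.9% higher and 0.783% lower with it. Without the block 621 genes and none of the 7 had an unadjusted p under 0.05, and DESeq2 called none of the 7. The study's quality limits were met by 372 and 196 control nuclei without a class, at day 42 and day 38. PP121 had 0 such nuclei on either day. Put back by their nearest annotated nuclei, they took Progenitor 1 from 586 to 934 and from 608 to 795 control nuclei. That fit, without the block, called 0 of the 7 and 0 of 17102 genes. YES1 was lower in both PP121 samples than in either control, at 144 ± 19.2 CPM against 192 ± 6.69 CPM (n = 2 each). The log2 difference was -0.45 (SE 0.23, edgeR adjusted p = 1.0), and -0.45 (SE 0.16, adjusted p = 0.12) with the block. In joint clusters it was -0.08, and -0.07 with the block, so the size of this difference followed where the class boundary was drawn. LYN differed by -1.0 (SE 0.61) from 7 to 46 UMIs per sum. The other 5 genes had log2 differences of -0.02 to 0.26. Of 30 pathway genes, 1 rose with the block: SORBS2, at 78.3 and 60.7 CPM in the controls and 101 and 139 CPM in PP121 (0.75, SE 0.18, edgeR adjusted p = 0.0023). In joint clusters with the block 0 of 32 were called, against 153 of 17489 genes. SRCIN1 had a difference of 0.50 (SE 0.30) without the block, but -0.11 in joint clusters and -0.10 in joint clusters with the block.

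In Progenitor 2 none of the 7 was called, against 0% of 18885 genes without the block and 4.38% higher and 2.32% lower with it. Here 1774 genes and none of the 7 had an unadjusted p under 0.05 without the block, and DESeq2 called none. CSK did not overlap, at 7.04 ± 0.01 CPM in control and 8.60 ± 0.15 CPM in PP121 (n = 2 each), and its log2 difference of 0.32 had an SE of 0.25. LYN did not overlap either, at 3.68 ± 1.28 against 6.0 ± 0.46 CPM (0.70, SE 0.34). The remaining 5 ran from -0.10 to 0.24. Of the pathway genes, EFS had the smallest p without the block (0.84, SE 0.34). None of the 32 pathway genes tested was called without the block, and with it 0 were higher and 1 was lower.

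**Figure D3:**
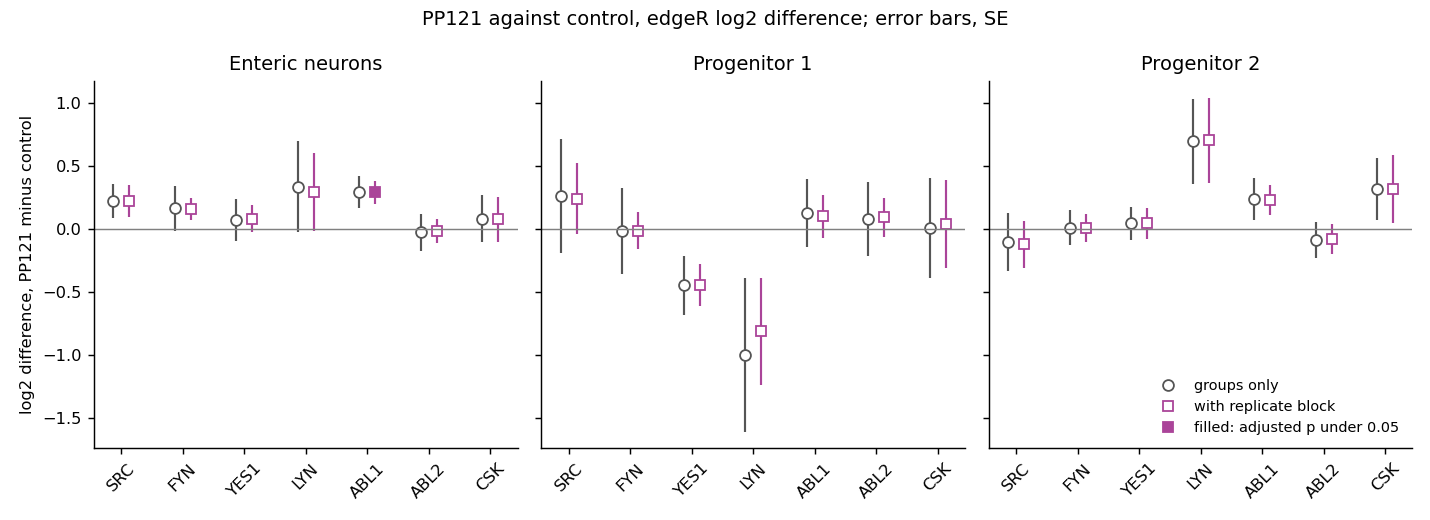
PP121 minus control log2 difference by edgeR (vertical axis, error bars SE) for the 7 genes in 3 classes, with circles for the fit on groups alone, squares for the fit with the replicate block, and filled symbols for an adjusted p under 0.05. ABL1 in enteric neurons, at 0.29, is the 1 filled symbol, and LYN has the widest errors.

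Whether PP121 acted differently in neurons and progenitors was tested as an interaction. None of the 7 genes was called, against 0% of 21787 genes by edgeR, and 2123 genes but none of the 7 had an unadjusted p under 0.05. DESeq2 called none of the 7. With the replicate block 0.744% of genes were higher and 0.909% lower, and again none of the 7 was among them. The interaction was 0.14 (SE 0.15) for ABL1, 0.25 (SE 0.16) for YES1 and 0.29 (SE 0.26) for SRC. The ABL1 call in neurons is therefore not shown to be particular to neurons. CBLB was the 1 pathway gene of 34 called with the block (0.57, SE 0.13, edgeR adjusted p = 0.021).

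Samples annotated as day 42 were lower than day 38 samples in several of these kinases, most of all in Progenitor 1. FYN there was 287 and 290 CPM at day 42, in control and PP121, against 409 and 411 CPM at day 38. SRC was 11.6 and 12.0 CPM at day 42 against 17.6 and 24.3 CPM at day 38, and ABL2 195 and 220 CPM against 255 and 265 CPM. None of these 3 overlapped between days, and neither did CSK, at a mean of 7.79 CPM at day 42 against 9.36 CPM at day 38. YES1, LYN and ABL1 overlapped, and the share of all genes without overlap was not counted. Without treatment in the model, edgeR called none of the 7 genes and 0% of 16083 genes. There 3106 genes and 3 of the 7 had an unadjusted p under 0.05. DESeq2 called 1 of the 7 lower, FYN, and 409 of 16083 genes lower. With treatment as a term, edgeR called FYN (log2 difference -0.66, SE 0.15, adjusted p = 3.1e-04), SRC (-0.98, SE 0.28, adjusted p = 0.0069) and ABL2 (-0.48, SE 0.16, adjusted p = 0.021) lower at day 42. That fit called 8.95% of genes lower and 5.66% higher. ABL1 was -0.36 (SE 0.17, adjusted p = 0.15 in the same edgeR fit) and YES1, higher in this class than in Progenitor 2 and neurons, was at 0.01 (SE 0.16).

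The edgeR values in Progenitor 1 carry a scaling step. On plain CPM the median of all genes was 0.17 higher at day 42 on the log2 scale, against 0.03 in the fit, and the plain differences were -0.51 for FYN, -0.81 for SRC and -0.32 for ABL2. The summed mesenchymal markers in Progenitor 1 were also lower at day 42, at 169 and 190 CPM against 223 and 304 CPM, and so were the progenitor markers, at 794 and 649 CPM against 934 and 890 CPM. Other marker sums in this class were higher at day 42 without overlap. Glial markers gave 17.9 and 16.2 CPM against 8.78 and 8.54 CPM, blood and immune markers 24.0 and 27.8 CPM against 16.3 and 9.85 CPM, and endothelial markers 6.32 and 6.84 CPM against 3.01 and 4.93 CPM. Their part in the day differences was not tested. Of 30 pathway genes 5 were lower at day 42 in the fit with treatment and none higher: PTK2, the focal adhesion kinase that recruits SRC (-0.58, SE 0.14), the ABL-interacting adaptor ABI1 (-0.68, SE 0.17), ENAH (-0.62, SE 0.15), the actin regulator WASF1 (-0.68, SE 0.17) and the ubiquitin ligase CBL (-0.62, SE 0.17). PTK2 read 803 and 760 CPM at day 42 and 1076 and 1023 CPM at day 38. The median log2 difference was -0.45 over the 7 genes, -0.20 over the pathway genes and 0.03 over all genes in that fit.

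In enteric neurons FYN was again lower at day 42, at 401 and 419 CPM against 461 and 522 CPM, without overlap. YES1 did not overlap either, at a mean of 53.5 CPM at day 42 against 62.8 CPM at day 38. Nor did CSK, which was higher at day 42, at a mean of 11.1 against 10.5 CPM. Marker sums of the neurons moved with day as well: mesenchymal markers were 152 and 164 CPM at day 42 against 200 and 230 CPM at day 38, and enteric neuron markers 9042 and 10785 CPM against 7822 and 8644 CPM. Their part in the FYN difference was not tested. Without treatment in the model edgeR called none of the 7 genes and 0% of 21243 genes. There 1574 genes and none of the 7 had an unadjusted p under 0.05, and DESeq2 called none of the 7. With treatment as a term FYN was the 1 called (-0.32, SE 0.09, edgeR adjusted p = 0.016), in a fit that called 5.81% of genes lower and 3.68% higher. YES1 differed by -0.29 (SE 0.11, adjusted p = 0.096 by edgeR). Of 34 pathway genes, 4 were lower in that fit: RELN (-1.22, SE 0.19), EFS (-1.37, SE 0.24), CBLB (-0.31, SE 0.09) and AFAP1 (-0.32, SE 0.09). In Progenitor 2 none of the 7 was called in either fit, against 0% of 18885 genes without treatment, where 1219 genes and none of the 7 had an unadjusted p under 0.05 and DESeq2 called none, and 2.55% lower and 2.26% higher with treatment. SRC was -0.41 (SE 0.18) and ABL1 -0.29 (SE 0.12) there, and WASF1 was the 1 of 32 pathway genes called (-0.49, SE 0.13, edgeR adjusted p = 0.0085). PTK2 was -0.26 (SE 0.13) without treatment in the model. Whether the day difference itself varied between classes was not tested.

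**Figure D4:**
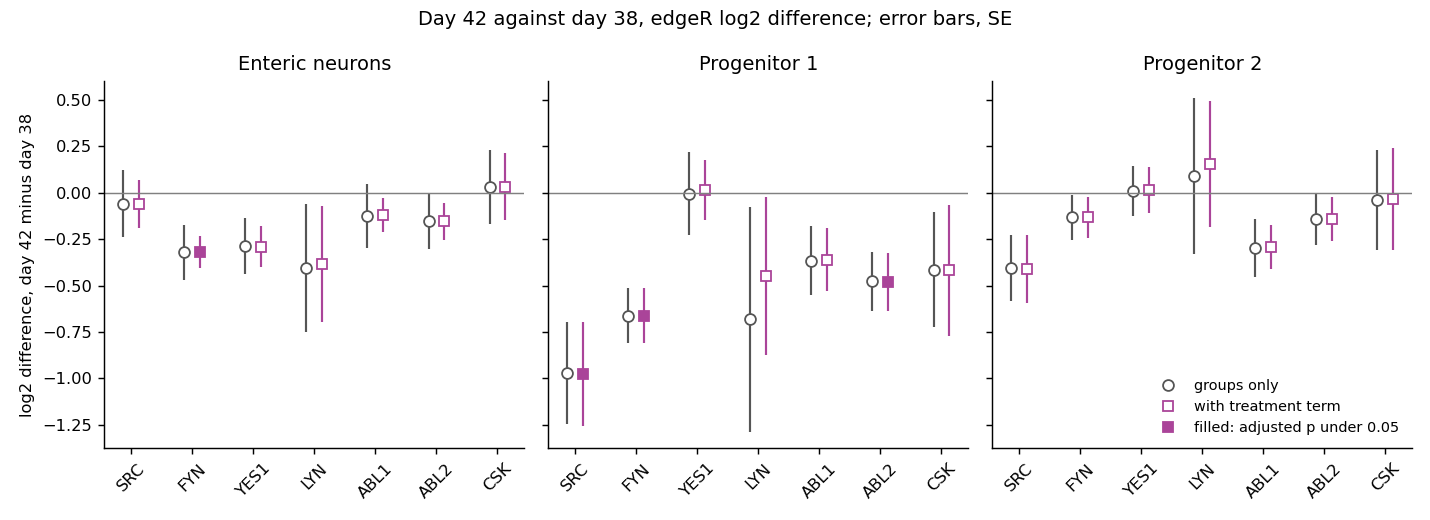
Day 42 minus day 38 log2 difference by edgeR (vertical axis, error bars SE) for the 7 genes in 3 classes, with circles for the fit on days alone, squares for the fit with treatment as a term, and filled symbols for an adjusted p under 0.05. Filled symbols stand at FYN in neurons (-0.32) and at SRC (-0.98), FYN (-0.66) and ABL2 (-0.48) in Progenitor 1, all below 0.

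Nitric oxide (NO) neurons, which relax gut muscle and were the cell type the study set out to enrich, numbered 449 and 230 in the day 42 and day 38 controls and 358 and 91 in PP121. YES1 was lower in them than in the other neurons of the same sample. It was 42.5 CPM in NO neurons against 52.4 CPM in other neurons of the day 42 control, 49.2 against 67.4 CPM in the day 38 control, 37.2 against 56.5 CPM in PP121 at day 42 and 53.4 against 62.6 CPM in PP121 at day 38. NO neurons were below in 4 of 4 samples, and the pooled ranges overlapped at 52.4 to 53.4 CPM. With sample as a block, the log2 difference was -0.36 (SE 0.10, edgeR adjusted p = 0.041), and YES1 was the only one of the 7 called, in a test that called 4.26% of 19027 genes lower and 7.43% higher. DESeq2 gave an adjusted p of 0.11 for YES1, and without either control replicate or without PP121 replicate 1 the edgeR adjusted p was 0.096, 0.15 and 0.21. Where a NOS1 UMI defined NO neurons, the difference was -0.19 (edgeR adjusted p = 0.95). That definition left 52 and 30 NO neurons in the day 42 and day 38 controls and 42 and 20 in PP121. All neurons without a NOS1 UMI counted as other, and edgeR called 196 of 18943 genes. The NO identity in the deposited annotation rests on imputed values, and imputation reads all genes, so the identity is not fully independent of YES1.

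CSK was 11.03, 4.57, 6.47 and 10.4 CPM in NO neurons of the day 42 control, the day 38 control, PP121 at day 42 and PP121 at day 38, against 11.1, 11.2, 12.0 and 11.4 CPM in other neurons. All 4 pairs pointed down, but the sums held 9 to 41 UMIs and the log2 difference of -0.47 (SE 0.23, edgeR adjusted p = 0.23) was not called. LYN, with 1 to 8 UMIs in NO neurons of a sample, differed by -0.53 (SE 0.39), and SRC, FYN, ABL1 and ABL2 by -0.05 to 0.04. Of 34 pathway genes 5 were higher and 2 lower in NO neurons, in the test that called 7.43% of all genes higher and 4.26% lower. DESeq2 called 3 of them higher and 1 lower. Where a NOS1 UMI defined NO neurons, with few nuclei, edgeR called 0 of 33 and 196 of 18943 genes in all. CBLB had the smallest p, falling from 691, 777, 889 and 1069 CPM in other neurons to 384, 372, 407 and 338 CPM in NO neurons of the same samples, without overlap (-1.11, SE 0.11, edgeR adjusted p = 2.1e-05). PAG1, a membrane adaptor that brings CSK to SRC kinases, was higher in NO neurons (0.83, SE 0.13), as was SRCIN1 (0.44, SE 0.11). The reelin adaptor DAB1 read 216, 179, 275 and 569 CPM in NO neurons against 194, 106, 130 and 127 CPM in other neurons, in the same order of samples (1.07, SE 0.23). The 91 NO neurons of PP121 at day 38 held the highest value, and without that sample the difference was 0.68 (edgeR adjusted p = 0.0024). DESeq2 gave DAB1 an adjusted p of 0.094, and with a NOS1 UMI as the definition the difference was 0.03. EFS was lower (-1.40, SE 0.42).

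**Figure D5:**
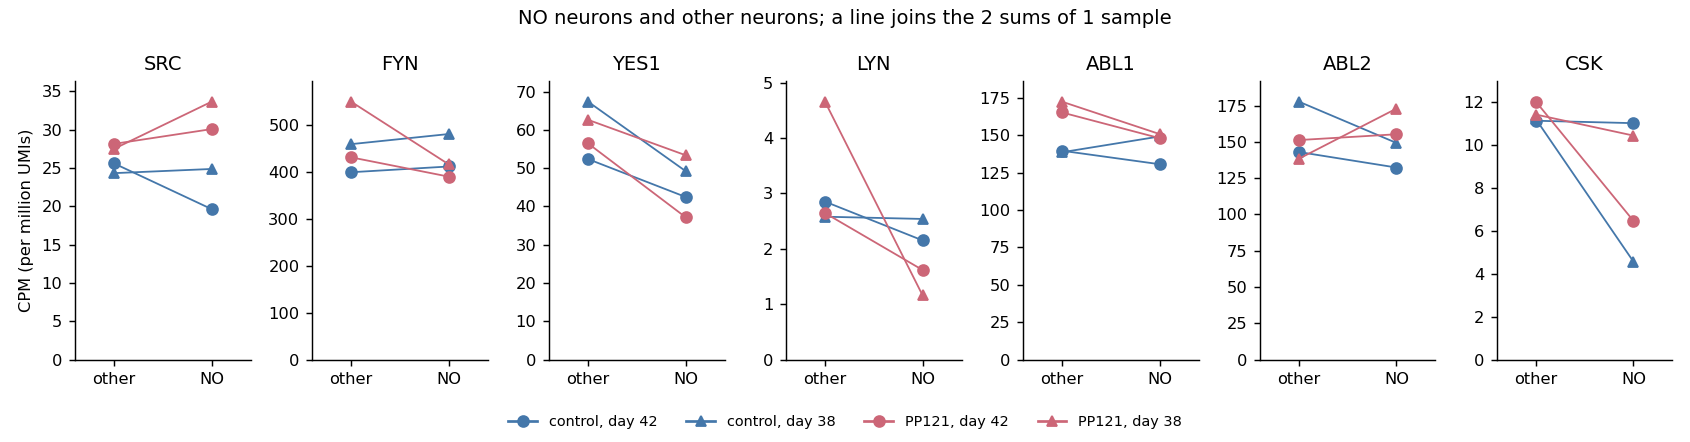
CPM of each gene (vertical axes, linear from 0) in other neurons and in NO neurons, with 1 line per sample. YES1 falls along all 4 lines, to 37.2 to 53.4 CPM in NO neurons, and SRC, FYN, ABL1 and ABL2 have lines in both directions.

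Cell cycle phase, as the deposited annotation gave it, was compared as G2M against G1, and none of the 7 genes was called. In Progenitor 1, where edgeR called 4.26% of 13201 genes higher and 4.14% lower in G2M than in G1, 0 of the 7 were called and 2 had an unadjusted p under 0.05. SRC was 13.7, 10.7, 12.2 and 18.3 CPM in G2M of the day 42 control, the day 38 control, PP121 at day 42 and PP121 at day 38, against 12.2, 25.4, 19.8 and 36.3 CPM in G1. It was lower in G2M in 3 of 4 samples (-0.70, SE 0.27, edgeR adjusted p = 0.10), from 12 to 37 UMIs per sum. Among genes with at least 10 counts in every sum, SRC was called (-0.73, edgeR adjusted p = 0.043). That fit tested 5 of the 7 and called 597 of 8522 genes lower and 482 higher. YES1 was higher in G2M in 4 of 4 samples, at 227, 176, 175 and 131 CPM against 185, 168, 148 and 112 CPM in G1, by 0.23 (SE 0.10, edgeR adjusted p = 0.18). DESeq2 called none of the 7. SORBS2 was the 1 of 29 pathway genes called (-0.69, SE 0.17, edgeR adjusted p = 0.013). In Progenitor 2, edgeR called 5.69% of 16356 genes higher and 3.85% lower and none of the 7, of which 1, ABL2, had an unadjusted p under 0.05 (-0.17, SE 0.08), and DESeq2 called none. Among 31 pathway genes ENAH (0.23, SE 0.07) and the adaptor CRK (0.43, SE 0.11) were higher in G2M, and CBLB (-0.32, SE 0.07) and SORBS2 (-0.30, SE 0.10) were lower.

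The genes whose levels followed each kinase most closely were sought over 18 sums of a class in a sample with at least 50 nuclei, among 11571 genes of at least 10 CPM on average. The sums share libraries and classes, so the correlations are a description. The nearest to YES1 was TJP1, a tight junction scaffold (Pearson's r = 0.98), followed by PPARD (0.95) and GXYLT1 (0.94). ABL2 was followed by ADAM10, a membrane protease (0.95), ANKRD13C (0.94) and AC015849.3 (0.94), and LYN by PEAK1, a pseudokinase of the cytoskeleton (0.93), FAM160A1 (0.93) and AC069272.1 (0.92). FYN went with TSHZ3 (0.92), EPC1 (0.92) and AL391839.1 (0.91), SRC with ABHD15-AS1 (0.92), TMEM131L (0.90) and PIP4K2A (0.89), CSK with ZYG11B (0.92) and DPF1 (0.91), and ABL1 with RNF122 (0.90), AC093690.1 (0.87) and CREBBP (0.87). Among the 7 themselves, SRC and FYN had the highest correlation (0.86), FYN and CSK reached 0.79, and LYN and CSK were most opposed (-0.83). ABL1 and ABL2 were at -0.32, and YES1 and FYN at -0.25, so these pairs of paralogs, unlike SRC and FYN, did not share 1 pattern over these sums.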

How the data were processed

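Single nuclei of 4 samples were sequenced, 2 control and 2 PP121. The deposited values are UMI counts per gene and nucleus, not normalized, beside the annotation of the authors (class, phase, day, neuron identity). The study's methods name kallisto and bustools, and the submitters' processing notes name Cell Ranger, Seurat 4.0.4 and GRCh38. The deposited percent of mitochondrial UMIs per nucleus, computed by the authors, served their limit of 10%. Whether introns were counted and strand used is not given in the sources used here. Samples were assigned from the labels; the sample names stored in the annotation of the 2 controls disagree with their labels on the replicate number. Libraries held 29305639 to 49428774 UMIs over all deposited nuclei.

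UMIs were summed per sample and class and tested with edgeR 4.0.16 (quasi-likelihood, TMM scaling, its own filter on low counts, Benjamini-Hochberg adjusted p under 0.05) in R 4.3.3. Fits were tested on simulated data. The main fits held the groups alone for treatment and day, and sample as a block for NO neurons, phase and the interaction. Class differences were log2 ratios of CPM within a sample for genes of at least 80 UMIs over the 8 sums, called past 1.5-fold in all samples. DESeq2 1.42.0, other filters, each sample left out and other class boundaries (scanpy 1.11.5) were alternatives. P-values of the fits on groups or days alone measure the spread between samples of 1 line, 2 per group. For treatment that spread includes the day difference, and for day the treatment difference. With the replicate block or the treatment term, they measure the spread left after both are fitted. With sample as a block, they measure how far a difference within a sample varied between samples.

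Same-numbered samples shared an annotated day, and their deviations from the group means correlated over genes (Pearson's r = 0.51 in neurons, 0.51 in Progenitor 1, 0.35 in Progenitor 2), so blocked fits are given too. The 7 genes and the pathway and marker lists were chosen with earlier results of these data known. The 7 genes were always named. Of the pathway list, at most 6 genes called per fit by smallest p were named, and the 2 with the smallest p where a fit called none. The values of 2 genes that these rules name are not reported here. Nuclei were thinned to 2000 UMIs for shares. No doublet was removed in the main fits: Scrublet's own threshold marked at most 1 nucleus per sample and was not used, and removal of the 5% with the highest scores was added after seeing the data. Promoter windows came from RefSeq (GRCh38.p14) for 5 of the 7 genes, and protein sequences were not used here.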

Additional observations from a re-analysis of the deposited data

Results flagged for a closer look

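PP121 and the day differed in sign between classes for 3 of the 7 genes, on plain CPM and in both pairs of samples. None of these differences between 2 single classes was tested. Signs can differ in both pairs by chance, and the share of all genes that did so was not counted. SRC was higher with PP121 in neurons at day 42 and day 38 (log2 difference 0.17 and 0.19) and lower in Progenitor 2 (-0.29 and -0.01), a gap of 0.33 between the class means. SRC was also higher in Progenitor 1 (0.04 and 0.47), a gap of 0.40 to Progenitor 2. YES1 was lower at day 42 than at day 38 in neurons of control and PP121 (-0.32 and -0.14) and higher in Progenitor 1 (0.07 and 0.27), a gap of -0.40. CSK was higher at day 42 in neurons (0.15 and 0.03) and lower in Progenitor 1 (-0.38 and -0.15), a gap of 0.36. In Progenitor 2 CSK was close to equal on both days (0.00 and 0.04), a gap of -0.29 between Progenitor 1 and Progenitor 2. The plain differences carry the shift of 0.17 in the median of all genes at day 42 in Progenitor 1, and in the edgeR fit on days alone YES1 in Progenitor 1 was at -0.00.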

How the results depend on the processing

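The replicate block moved the number of the 7 genes called for PP121 in neurons from 0 to 1 (ABL1) and changed no other call among the 7. With treatment as a term, the day contrast called 1 of the 7 in neurons in place of 0, and 3 in Progenitor 1 in place of 0. In Progenitor 1 the day contrast called 1 lower by DESeq2, where 409 of 16083 genes were called lower. It called 2 lower with no filter on low counts (768 of 28981 genes) and 2 lower in joint clusters (360 of 17489 genes). For NO neurons the count of 1, YES1, became 0 by DESeq2, 0 where a NOS1 UMI defined the cells and 0 to 1 without 1 replicate. For G2M in Progenitor 1 it was 1 (SRC, -0.73) where every sum needed 10 counts, beside 597 of 8522 genes lower. The class count of 1 was 1 to 2 without 1 replicate, LYN joining without PP121 replicate 2. TMM scaling over all class sums moved every neuron minus progenitor ratio by a mean of 0.11, to 0.50 for FYN and -0.24 for ABL2, and the directions kept. The log2 difference of SRCIN1 for PP121 in Progenitor 1 reversed in joint clusters, to -0.11 and, with the replicate block, -0.10; the cause was not tested. The removal of high doublet scores was run on the PP121 and day fits without block or treatment term, and on the interaction. In these fits 0 of the 7 were called before and after it. The removal was not run on fits with the block or treatment term, NO neurons, phase or class ratios. The planned removal of Scrublet's own calls was not run. Of 485 values of single genes under alternatives, 396 kept their direction and side of the threshold, 54 passed it, 33 lost it and 2 reversed. A further 55 differences of the 7 genes, with p of 0.05 or more in both fits, were called under no alternative, and 32 of them changed sign under 1 or more.

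Over all genes, PP121 called 0 genes in each class without the block, and 3152 in neurons, 593 in Progenitor 1 and 1267 in Progenitor 2 with it, against 0 to 1402, 6 to 349 and 0 to 1052 without 1 replicate. In each class the highest was without PP121 replicate 1. The day contrast called 0 in each class on days alone and 2015, 2350 and 908 with treatment as a term, against 2 to 271, 0 to 999 and 0 to 48 without 1 replicate, each highest without control replicate 2. The interaction called 0 to 514 over its alternatives, NO neurons 196 to 3041 against 2223, and G2M 411 to 1236 against 1110 in Progenitor 1 and 1029 to 1848 against 1560 in Progenitor 2.

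Depth limits LYN and CSK most, with 662 and 1067 UMIs in all. Each group held 2 samples of 1 cell line. Fewer nuclei of a type and less RNA per nucleus cannot be told apart in the summed counts of a mixed class. A p above the threshold does not show that levels were alike.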
